A study of Bos taurus with 30 samples.

Results

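Transcripts that restrain an immune response were examined in endometrial cells taken from dairy cows at 7 days postpartum (DPP), before uterine disease was diagnosed. The genes were chosen by name: CD274, IL10, IL10RA, IL10RB, IDO1, SOCS1 and ARG2. Of these 7 genes, 5 had a row of that name among the 10476 genes of the deposited tables, and IL10RB and SOCS1 were not analysed here. The samples were uterine cytobrushes from mixed-parity Holstein-Friesian cows of a commercial farm, 1 library per cow, and disease was classified at 21 DPP. The 27 cows of the study set fell into 6 groups by that outcome and by the share of polymorphonuclear cells (PMN, largely neutrophils) at 7 DPP, with a limit of 18%. Cows which remained healthy were uninflamed (low PMN, n = 5) or inflamed (high PMN, n = 5). Cows which developed cytological endometritis (CYTO, excess PMN without discharge) were uninflamed (n = 5) or inflamed (n = 4) at 7 DPP. Cows which developed purulent vaginal discharge had it alone (PVD alone, n = 4) or together with CYTO (PVD with CYTO, n = 4). The study's group names mark both PVD groups as high in PMN at 7 DPP. A comparison of PVD with all healthy cows, inflamed and uninflamed, therefore does not separate disease from inflammation at 7 DPP. Comparisons of a PVD group with inflamed healthy cows are matched on this label. A cytobrush holds a mixture of epithelial, stromal and immune cells, so in every result a larger share of a cell type and more RNA per cell cannot be told apart.

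These genes act at different points of immune restraint. CD274 encodes PD-L1, a surface ligand that dampens T cells through the receptor PD-1, and it is induced by interferon-gamma. IL10 encodes an anti-inflammatory cytokine, and IL10RA and IL10RB encode the chains of its receptor, which signals through JAK1, TYK2 and STAT3. IDO1 encodes the enzyme that starts tryptophan breakdown to kynurenine and is a classical interferon-gamma target. ARG2 encodes the mitochondrial arginase, which consumes arginine, and SOCS1 encodes a feedback inhibitor of JAK kinases.

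IL10 was the only one of these genes with a designed oligonucleotide pair in the study's supplement, and the pair is shown because it defines the IL10 transcript assayed by quantitative PCR there. Both primers are written 5′ to 3′.
IL10 forward: gaaggaccaactgcacagctt
IL10 reverse: aaaactggatcatttccgacaag
The PCR values themselves were not used here.

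The libraries held 11922966 to 39202083 counted reads (median 23107772), so a single read corresponded to 0.0255 to 0.0839 CPM, the unit of all levels here (reads of a gene scaled to the size of its library). Gene lengths were not used, so levels are compared between cows and not between genes. Epithelial, stromal and myeloid markers were present in each cow: KRT8 ran from 92.4 to 970.3 CPM, VIM from 56.2 to 5614 CPM and CD14 from 125 to 1873 CPM. The neutrophil receptor gene CSF3R ran from 1.65 to 1896 CPM, and no cow was at 0 for any of these genes. Cow s1239 of the PVD with CYTO group stood apart: the summed level of 13 neutrophil marker genes was 27869 CPM in s1239 and at most 8342 CPM in the other 26 cows. For several limma results the value without it is also given. The edgeR and DESeq2 fits were not repeated without it. The PMN groups did not separate the healthy cows by these markers: the sum ran from 131 to 1029 CPM in uninflamed and from 379 to 5821 CPM in inflamed healthy cows.

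CD274 (ENSBTAG00000000095), the PD-L1 gene, was high in every cow of the inflamed CYTO group and low in every cow of the uninflamed CYTO group. This does not extend to the cows which developed CYTO together with PVD. In inflamed CYTO cows it was at 161, 205, 313 and 373 CPM. In uninflamed CYTO cows it was at 5.32, 5.67, 9.12, 9.68 and 10.3 CPM. In inflamed healthy cows it was at 2.49, 9.06, 9.79, 14.5 and 62.1 CPM. The inflamed CYTO cows lay above every cow of both these groups, with no overlap. Uninflamed healthy cows were at 0.471, 1.15, 1.48, 10.2 and 12.1 CPM. Cows with PVD alone were at 7.40, 14.7, 61.4 and 236 CPM. Cows with PVD and CYTO were at 4.93, 25.7, 75.0 and 1464 CPM. The PVD groups were the most spread, reaching from the level of healthy cows to that of inflamed CYTO cows and, in s1239, beyond. Of the 27 cows, 7 exceeded the highest healthy cow (62.1 CPM): 4 inflamed CYTO cows, 1 with PVD alone and 2 with PVD and CYTO. By median the order was uninflamed healthy (1.48 CPM), uninflamed CYTO (9.12), inflamed healthy (9.79), PVD alone (38.1), PVD with CYTO (50.3) and inflamed CYTO (259), and each neighbouring pair in that order overlapped.

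**Figure D1:**
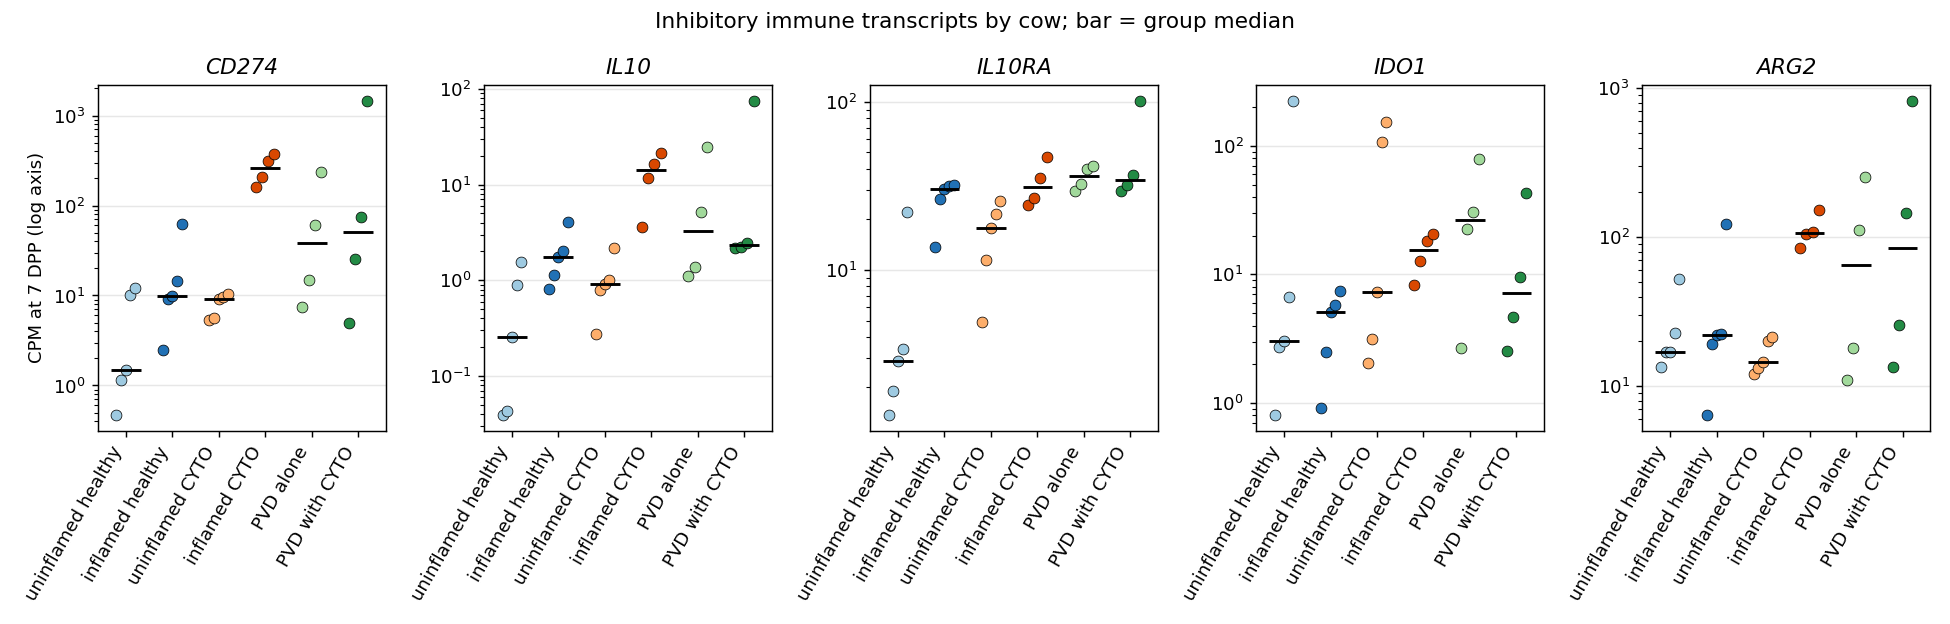
Levels of the 5 genes by cow at 7 DPP. The vertical axis gives CPM on a log scale, each point is a cow and the bar is the median of its group. For CD274 the inflamed CYTO cows (161 to 373 CPM) sit above both uninflamed CYTO cows (5.32 to 10.3 CPM) and inflamed healthy cows (2.49 to 62.1 CPM), while for IDO1 the highest points (108, 153 and 225 CPM) belong to uninflamed cows.

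Two-sided limma tests on log2(CPM + 1), adjusted by Benjamini-Hochberg over all genes tested, gave these differences for CD274; a gene was called at an adjusted p under 0.05 and an absolute log2 fold change over 1. Inflamed CYTO cows exceeded uninflamed CYTO cows by 4.84 on the log2 scale (SE 0.29, 95% confidence interval 4.19 to 5.48, adjusted p = 5.75e-05). They exceeded inflamed healthy cows by 4.27 (SE 0.68, interval 2.76 to 5.78, adjusted p = 0.0306). All 4 inflamed CYTO cows lay on that side in each comparison. The first call held when any cow was left out (4.64 to 5.05). The second call was lost in 7 of 9 such fits, with no change of direction: its adjusted p for CD274 passed 0.05 without healthy cows s1066 (0.0907), s1831 (0.106), s2053 (0.0870) or s2392 (0.0503) and without CYTO cows s2039 (0.127), s2064 (0.145) or s2184 (0.102), although the fold change stayed between 3.79 and 4.84. With the spread estimated from all 27 cows neither CD274 difference was called (adjusted p = 0.0552 and 0.607), and edgeR's quasi-likelihood test did not call the second (adjusted p = 0.224) while DESeq2's Wald test did (adjusted p = 0.000205).

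CD274 was not called by limma in the comparisons that involve PVD. PVD cows exceeded all healthy cows by 2.75 (SE 0.94, adjusted p = 0.195, limma), with 7 of 8 cows above the healthy mean of log2 values. Both PVD groups were labelled high in PMN and only part of the healthy cows were, so that difference mixes disease with inflammation. Without s1239 that difference was 2.06. DESeq2 (3.06, adjusted p = 0.00217) and the limma fit of all 27 cows (adjusted p = 0.0335) called this difference, and edgeR did not. DESeq2 by default replaces outlying counts in groups of at least 7 samples, here those of s1570 and s1239 for CD274, and without this step, an alternative chosen after seeing the data, its value was 5.29 (adjusted p = 3.4e-05). The difference from inflamed healthy cows was 1.53 (SE 1.01) for PVD alone and 2.32 (SE 1.30) for PVD with CYTO. The latter fell to 0.82 without s1239. Inflamed healthy exceeded uninflamed healthy cows by 1.67 (SE 0.85, adjusted p = 0.238), and the groups overlapped. The effect of CYTO in inflamed cows was larger than that in uninflamed cows by 3.17 (SE 0.98), an interaction that was not called (adjusted p = 0.258) except when inflamed healthy cow s1570 was left out (3.74, adjusted p = 0.0400).

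IL10 (ENSBTAG00000006685), the cytokine gene, was likewise highest by median in inflamed CYTO cows, from few reads in many libraries. In inflamed CYTO cows it was at 3.62, 11.7, 16.5 and 21.1 CPM, that is 77 to 435 reads. In uninflamed CYTO cows it was at 0.278, 0.793, 0.915, 1.02 and 2.17 CPM. In inflamed healthy cows it was at 0.815, 1.14, 1.75, 2.01 and 4.03 CPM. The inflamed CYTO cows lay above all uninflamed CYTO cows, and s1944 at 3.62 CPM was below the highest inflamed healthy cow, s1570. Uninflamed healthy cows were at 0.0392, 0.0436, 0.255, 0.888 and 1.54 CPM, and the lowest 2 rested on 1 read each. Cows with PVD alone were at 1.12, 1.38, 5.15 and 24.8 CPM. Cows with PVD and CYTO were at 2.16, 2.21, 2.46 and 75.2 CPM, so that group was tight apart from s1239. The order of medians was uninflamed healthy (0.255 CPM), uninflamed CYTO (0.915), inflamed healthy (1.75), PVD with CYTO (2.33), PVD alone (3.26) and inflamed CYTO (14.1), and all neighbours overlapped.

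IL10 rose in inflamed CYTO relative to uninflamed CYTO cows, by 2.66 (SE 0.49, interval 1.55 to 3.76, limma adjusted p = 0.00781), and the call held with any cow left out (2.37 to 3.13) but not in the fit of all 27 cows (adjusted p = 0.107). Because of the added 1 CPM this understates the change at such low levels: with 0.1 CPM added the value was 3.52. Against inflamed healthy cows the difference was 2.15 (SE 0.49, adjusted p = 0.150), called only without s1944 (2.62, adjusted p = 0.0382) or by DESeq2 (adjusted p = 0.00089). PVD cows exceeded healthy cows by 1.62 (SE 0.63, adjusted p = 0.199), with 8 of 8 cows above the healthy mean, and by 1.11 without s1239. IL10 did not pass the level filter in the comparison of uninflamed CYTO with uninflamed healthy cows and was not tested there.

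IL10RA (ENSBTAG00000005215), the ligand-binding chain of the IL-10 receptor, was lowest in 4 of the 5 uninflamed healthy cows and overlapped among all inflamed and PVD groups. Uninflamed healthy cows were at 1.37, 1.92, 2.89, 3.39 and 22.1 CPM. Inflamed healthy cows were at 13.8, 26.4, 30.1, 31.5 and 31.9 CPM. Only s1890 of the uninflamed healthy group reached into the range of the inflamed healthy cows. Uninflamed CYTO cows were at 4.93, 11.5, 17.8, 21.7 and 25.7 CPM. Inflamed CYTO cows were at 24.4, 26.7, 35.4 and 46.7 CPM. The 8 PVD cows lay between 29.4 and 41.3 CPM except s1239 at 102 CPM, and they overlapped with the inflamed healthy and inflamed CYTO cows. By median the order was uninflamed healthy (2.89 CPM), uninflamed CYTO (17.8), inflamed healthy (30.1), inflamed CYTO (31.0), PVD with CYTO (34.3) and PVD alone (36.2), each overlapping with the next.

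IL10RA was not called by limma in any comparison or in the interaction. Inflamed healthy exceeded uninflamed healthy cows by 2.45 (SE 0.57, adjusted p = 0.111), with 5 of 5 cows above the uninflamed mean of log2 values. Leaving out s1890 brought that difference to 3.02 (adjusted p = 0.000554), and the fit of all 27 cows also called it (2.45, adjusted p = 0.0115). Inflamed CYTO exceeded uninflamed CYTO cows by 1.12 (SE 0.42, adjusted p = 0.0802). Between inflamed CYTO and inflamed healthy cows the difference was 0.32 with an interval of -0.32 to 0.96, so an increase of the size seen for CD274 in the same cows lay outside the interval. Marker levels moved with this difference and with s1890: the summed stroma markers were at 210 to 26273 CPM in uninflamed and 14578 to 55280 CPM in inflamed healthy cows, the 16 macrophage and monocyte markers at 243 to 3736 and 3472 to 6724 CPM, and the 17 epithelial markers at 778 to 7562 and 597 to 1660 CPM. Cow s1890 held the highest stroma and macrophage and the lowest epithelial value of its group, and the part of these cells in the result was not tested. PVD cows exceeded healthy cows by 1.82 (SE 0.55, adjusted p = 0.195), with 8 of 8 cows above the healthy mean.

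IDO1 (ENSBTAG00000020602), the gene of the tryptophan-degrading enzyme, had its highest levels in cows without inflammation. Uninflamed healthy cows were at 0.807, 2.71, 3.01, 6.64 and 225 CPM. Uninflamed CYTO cows were at 2.05, 3.13, 7.36, 108 and 153 CPM. In both uninflamed groups most cows were below 10 CPM, and s2006, s1183 and s2167 were the top 3 of the 27 cows. Inflamed healthy cows were at 0.911, 2.47, 5.12, 5.74 and 7.46 CPM. Inflamed CYTO cows were at 8.26, 12.6, 18.2 and 20.6 CPM. The inflamed CYTO cows all lay above the inflamed healthy cows. Cows with PVD alone were at 2.67, 22.6, 30.4 and 79.1 CPM. Cows with PVD and CYTO were at 2.52, 4.66, 9.56 and 43.2 CPM. These groups overlapped with each other and with every other group. By median the order was uninflamed healthy (3.01 CPM), inflamed healthy (5.12), PVD with CYTO (7.11), uninflamed CYTO (7.36), inflamed CYTO (15.4) and PVD alone (26.5), neighbours overlapping throughout. With RLE or TMM factors applied, uninflamed CYTO and PVD with CYTO changed places, and the orders of the other 4 genes stayed as given.

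IDO1 was not called by limma in any comparison. Inflamed CYTO exceeded inflamed healthy cows by 1.68 (SE 0.46, interval 0.66 to 2.71, adjusted p = 0.286) with no overlap, as did 1.41% of the genes tested. PVD alone exceeded inflamed healthy cows by 2.20 (SE 0.79, adjusted p = 0.99998), with 3 of 4 cows above that mean. Inflamed and uninflamed CYTO cows differed by -0.23 with a wide interval of -2.93 to 2.47. DESeq2 called IDO1 higher in PVD than in healthy cows (2.96, adjusted p = 0.000991) and in CYTO than in healthy cows (3.02, adjusted p = 0.0106), but these calls go beyond the group means, which were 25.96 CPM in healthy (SD 69.9, n = 10), 24.3 CPM in PVD (SD 26.6, n = 8) and 37.1 CPM in CYTO cows (SD 54.7, n = 9). In both fits DESeq2 had replaced the count of healthy cow s2006 (225 CPM) as outlying. With no count replaced the differences were 0.40 (adjusted p = 0.817) and 0.44 (adjusted p = 0.998), and neither was called.

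ARG2 (ENSBTAG00000001945), the arginase gene, was also high in inflamed CYTO cows. Inflamed CYTO cows were at 84.7, 106, 109 and 153 CPM. Uninflamed CYTO cows were at 12, 13.3, 14.5, 20.2 and 21.4 CPM. Inflamed healthy cows were at 6.42, 19.3, 22.0, 22.3 and 122 CPM. The CYTO groups did not overlap, and s1570 of the inflamed healthy cows lay inside the range of the inflamed CYTO cows. Uninflamed healthy cows were at 13.5, 17.0, 17.1, 22.9 and 52.5 CPM. Cows with PVD alone were at 11.0, 18.2, 112 and 254 CPM. Cows with PVD and CYTO were at 13.4, 25.9, 145 and 826 CPM. Each PVD group thus held 2 cows at the level of uninflamed cows and 2 at or above that of most inflamed CYTO cows. The medians ran from 14.5 CPM in uninflamed CYTO through 17.1 in uninflamed healthy, 22.0 in inflamed healthy, 65.3 in PVD alone and 85.3 in PVD with CYTO to 107 in inflamed CYTO cows, with overlap at each step.

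ARG2 rose in inflamed CYTO relative to uninflamed CYTO cows by 2.73 (SE 0.22, interval 2.23 to 3.22, limma adjusted p = 0.000203), and by 2.57 to 2.85 with any cow left out, a call that the fit of all 27 cows did not make (adjusted p = 0.137). Against inflamed healthy cows the difference of 2.15 (SE 0.64) was not called (adjusted p = 0.376). Cow s1570 decided this value: without it ARG2 was called at 2.73 (adjusted p = 0.00909). The interaction was 2.58 (SE 0.76, adjusted p = 0.250) with s1570 and was called at 3.15 (adjusted p = 0.01) without it. Inflamed and uninflamed healthy cows differed by 0.14 (interval -1.29 to 1.58).

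**Figure D2:**
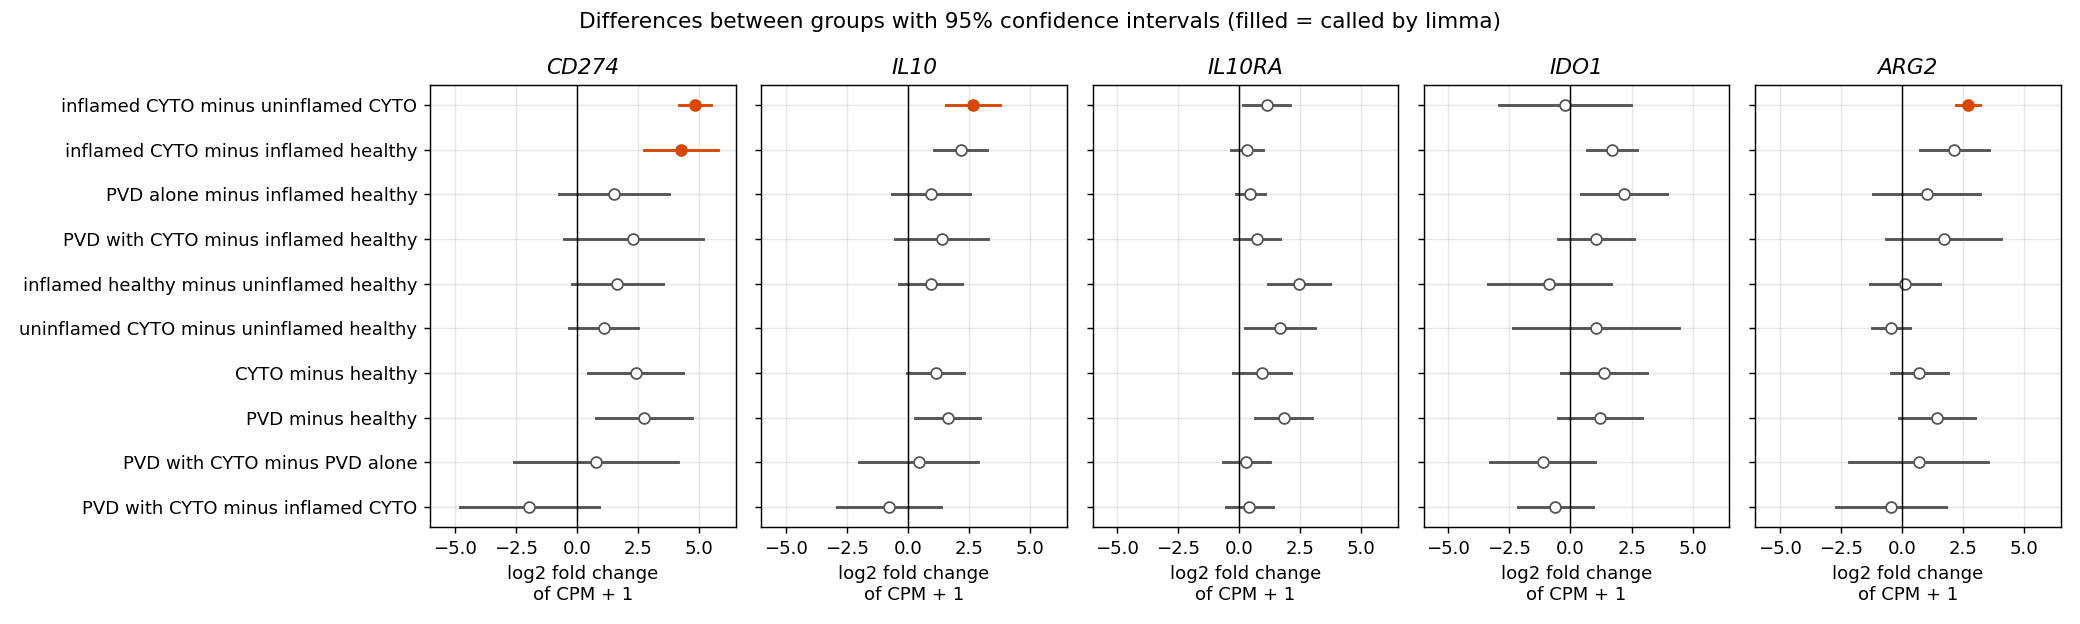
Log2 fold change of CPM + 1 with 95% confidence interval for each gene (columns) and comparison (rows), with the first-named group minus the second. Filled points are called by limma. They are CD274 in both upper rows (4.84 and 4.27) and IL10 (2.66) and ARG2 (2.73) in the upper row, and the intervals of the PVD rows are the widest for CD274.

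Counted together, 3 of the 5 genes were called higher in inflamed than in uninflamed CYTO cows, where 5.31% of the 10443 genes tested were called higher. The edgeR test called the same 3 and 6.63% of genes higher, and DESeq2 also called IL10RA and 8.37% of genes. These 3 genes were those without overlap between the groups, as were 6.95% of genes, and 4 of 5 had an unadjusted p under 0.05 and were higher, as did 12.6% of genes. In inflamed CYTO against inflamed healthy cows CD274 was called, 1 of 5, against 0.412% of 10432 genes. CD274 and IDO1 did not overlap there and were higher, as were 1.41% of genes, and 4 of 5 genes were higher at an unadjusted p under 0.05, as were 3.94% of genes. edgeR called none of the 5 and 0.134% of genes higher, and DESeq2 called CD274 and IL10 and 1.22% of genes. The median fold change of the 5 genes was 2.66 and 2.15 in these comparisons, and that of all genes was -0.14 and -0.08. Between all PVD and healthy cows, a comparison that mixes disease with inflammation at 7 DPP, limma called none of the 5 genes. It called 0% of the 10454 genes tested, and edgeR called none of the 5. At an unadjusted p under 0.05, 3 of the 5 (CD274, IL10 and IL10RA) were higher in PVD, as were 7.52% of all genes. DESeq2 called all 5 higher there and 3.13% of all genes, and with no outlying count replaced it called 4 (not IDO1) and 5.04% of genes. The fit of all 27 cows called CD274 (adjusted p = 0.0335) and IL10RA (adjusted p = 0.0223) and 3.57% of genes. Between all CYTO and healthy cows limma again called none of the 5 and 0% of 10462 genes. CD274 alone of the 5 had an unadjusted p under 0.05 there, as did 1.96% of genes in that direction, and edgeR called none while DESeq2 called IDO1 and 0.182% of genes higher, and none of the 5 and 0.162% of genes with no count replaced. In inflamed against uninflamed healthy cows limma called none of the 5 and 0% of 10424 genes. IL10RA was higher there at an unadjusted p under 0.05, as were 16.7% of genes, and it was called by DESeq2 (2.28% of genes higher) and by the fit of all 27 cows (9.24%), not by edgeR. In uninflamed CYTO against uninflamed healthy cows limma called none of the 4 genes tested and 0% of 10428 genes, and neither edgeR nor DESeq2 called any of the 4. IL10RA was higher there by 1.65 at an unadjusted p under 0.05, as were 12.8% of genes. The interaction was called for none of the 5 genes by limma, edgeR or DESeq2 and for 0.0764% of genes by limma, and CD274, IL10 and ARG2 had an unadjusted p under 0.05, as did 2.43% of genes in that direction. Where a tool called none of the genes and no share of all genes is given beside it, nothing is read from that count. Comparisons that share a group of cows are not independent of each other. The median log2 fold change of all genes was -0.36 in PVD with CYTO against inflamed healthy cows and 0.02 after RLE scaling, the largest such shift, and scaling by RLE or TMM changed no call and no sign of the 5 genes.

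Limma called 0% of the genes tested when either PVD group was compared with inflamed healthy cows, with each other or, for PVD with CYTO, with inflamed CYTO cows. Of the 5 genes, IDO1 in PVD alone against inflamed healthy cows was the only one with an unadjusted p under 0.05 in limma, against 0.259% of genes in that direction. The corresponding share of genes was 0.365% in PVD with CYTO against inflamed healthy cows and 0.048% in each of the other 2 comparisons. Neither edgeR nor DESeq2 called any of the 5 in these 4 comparisons. Nothing is read from this, because the share of all genes called is not given beside it. By edgeR all 5 were higher at an unadjusted p under 0.05 in PVD with CYTO against inflamed healthy cows, as were 4.8% of genes. For CD274 in PVD with CYTO against inflamed CYTO cows the difference was -1.95 with an interval of -4.79 to 0.89. By edgeR and DESeq2 the sign was the opposite for CD274 there (1.56 and 1.73), and s1239 held 1464 CPM. Between PVD with CYTO and PVD alone the difference for CD274 was 0.79 (interval -2.56 to 4.15), and without s1239 it was -0.71.

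Neutrophil marker genes moved with CD274, IL10 and ARG2. The summed level of the 13 genes was 4085 to 7149 CPM in inflamed CYTO, 585 to 889 CPM in uninflamed CYTO and 379 to 5821 CPM in inflamed healthy cows. Of this list, 9 of the 12 genes tested were called higher in inflamed than in uninflamed CYTO cows, where 5.31% of all genes were. In inflamed CYTO against inflamed healthy cows 1 of 13 (CSF3R) was called higher, where 0.412% of all genes were. At an unadjusted limma p under 0.05, 8 of these 13 were higher there, as were 3.94% of all genes. The list had a median of 1.58 in that comparison, and all genes had -0.08. Over the 27 cows, which share the group differences, the mean log2 level of this list had a Pearson r of 0.94 with CD274, 0.91 with IL10, 0.83 with ARG2, 0.81 with IL10RA and 0.30 with IDO1. IL10RA also had an r of 0.90 with the 16 macrophage and monocyte genes, and CD274 had 0.52. With the neutrophil list as a covariate, CD274 in inflamed CYTO exceeded inflamed healthy cows by 2.04 (SE 0.45, adjusted p = 0.273) and ARG2 differed by -0.09 (SE 0.25). The same covariate left a difference between inflamed and uninflamed CYTO cows of 3.66 (SE 1.66) for CD274, 1.47 (SE 1.25) for ARG2 and -1.67 (SE 2.50) for IL10, none called, with neutrophil levels that do not overlap between these groups. Both groups developed CYTO, and in this comparison the labelled inflammation, which is a high PMN share, cannot be told apart from the number of neutrophils.

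Cows with a similar neutrophil sum were not all alike in CD274. Inflamed healthy cow s1570 had a neutrophil sum of 5821 CPM, inside the range of the inflamed CYTO cows, with CD274 at 62.1 CPM, ARG2 at 122 CPM and IL10 at 4.03 CPM. Cow s2520 with PVD alone had a sum of 5351 CPM with CD274 at 61.4 CPM and ARG2 at 112 CPM. Cow s2161 with PVD and CYTO had a sum of 8342 CPM with CD274 at 75.0 CPM and ARG2 at 145 CPM. In these 3 cows CD274 was below all 4 inflamed CYTO cows, and ARG2 was within their range. Cow s2683 with PVD alone (6643 CPM) had CD274 at 236 CPM, inside that range. The 3 cows with the highest IDO1 had neutrophil sums of 239, 585 and 794 CPM.

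**Figure D3:**
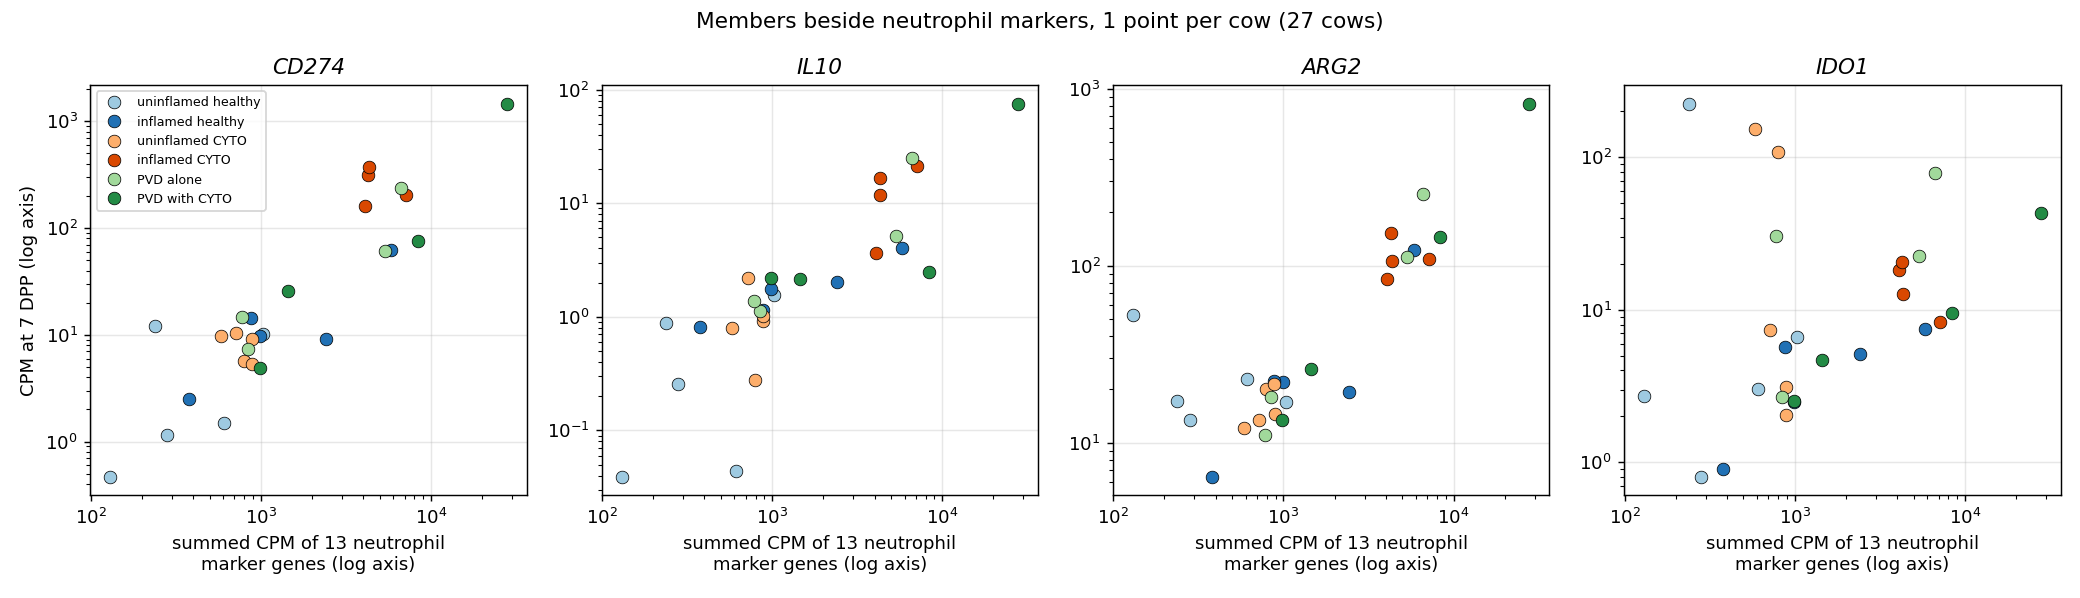
Level of CD274, IL10, ARG2 and IDO1 (vertical, CPM, log axis) against the summed CPM of 13 neutrophil marker genes (horizontal, log axis), with 1 point per cow coloured by group. CD274 in inflamed CYTO cows (161 to 373 CPM) lies above that of inflamed healthy cow s1570 (62.1 CPM) at a similar neutrophil sum, and the 3 highest IDO1 points lie at sums of 239, 585 and 794 CPM.

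Genes of the surrounding pathways were counted from lists that leave the 5 genes out, for inflamed CYTO against uninflamed CYTO cows unless another group is named. Of the 13 genes of IL-10 receptor signalling, 8 were called higher and none lower, with a median of 1.61, where 5.31% of all genes were called higher and all genes had a median of -0.14. Neutrophil markers moved in the same comparison, with 9 of 12 called higher, and their part in these counts was not tested. The 8 called genes of IL-10 receptor signalling included SOCS3 (4.53, SE 0.44), the STAT3-induced feedback inhibitor. Among them was also IL1RN (4.63, SE 0.31), which encodes the IL-1 receptor antagonist. ZFP36 (3.58), whose product destabilises cytokine mRNA, NFIL3 (2.78), HMOX1 (1.72), DUSP1 (1.68), SBNO2 (1.61) and BCL3 (1.59) were the others. JAK1 (-0.01), TYK2 (0.44) and STAT3 (0.30) were not called. Against inflamed healthy cows none of the 13 was called by limma, 8 were higher at an unadjusted p under 0.05, as were 3.94% of all genes, and SOCS3 differed by 3.46 (adjusted p = 0.0673). SOCS3 lay at 85.8 to 226 CPM in inflamed CYTO, 2.30 to 12.6 CPM in uninflamed CYTO and 2.52 to 52.5 CPM in inflamed healthy cows. The inflamed CYTO cows lay above both these groups, which overlapped with each other. The PVD groups reached into or beyond the inflamed CYTO range, up to 196 CPM in PVD alone and 1277 CPM in PVD with CYTO.

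Checkpoint ligands and receptors other than CD274 were represented by 5 of 26 genes. Only CD80, a co-stimulatory ligand, was called higher (1.32, SE 0.25), where 5.31% of all genes were, and nothing is read from that single call. Against inflamed healthy cows CD80 was not called (1.20, limma adjusted p = 0.376). CD86, the related ligand, differed by 0.19 against uninflamed CYTO cows and by -0.95 against inflamed healthy cows (adjusted p = 0.922). PDCD1, the receptor of PD-L1, was among the genes not analysed here. The only gene of the IL-10 family or its shared receptors that was measured, IL22RA1, differed by 0.99 (adjusted p = 0.344).

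Among enzymes of the pathways of IDO1 and ARG2, 1 gene was called higher in each list, where 5.31% of all genes were called higher, and nothing is read from a count of 1. Of 9 tryptophan and kynurenine genes KMO, which encodes the hydroxylase acting on kynurenine, was called higher (3.75, SE 0.29, median of the list 0.26). It was at 19.7 to 41.4 CPM in inflamed CYTO, 0.543 to 1.71 CPM in uninflamed CYTO and 0.240 to 15.9 CPM in inflamed healthy cows. WARS, the tryptophanyl-tRNA synthetase gene, differed by 0.63 (adjusted p = 0.0607). Of 11 arginine metabolism genes NOS2, which encodes the inducible nitric oxide synthase that also uses arginine, was called higher (4.54, SE 0.30, median 0.02). NOS2 lay at 643 to 1327 CPM in inflamed CYTO, 25.4 to 52.8 CPM in uninflamed CYTO and 16 to 898 CPM in inflamed healthy cows, and it was not called against the latter (2.94, adjusted p = 0.706). OAT, the ornithine aminotransferase gene, differed by -0.85 (adjusted p = 0.0756). Among 15 SOCS family members and other JAK-STAT inhibitors 2 were called higher, SOCS3 and CISH (2.41, SE 0.39), with a median of 0.28.

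**Figure D4:**
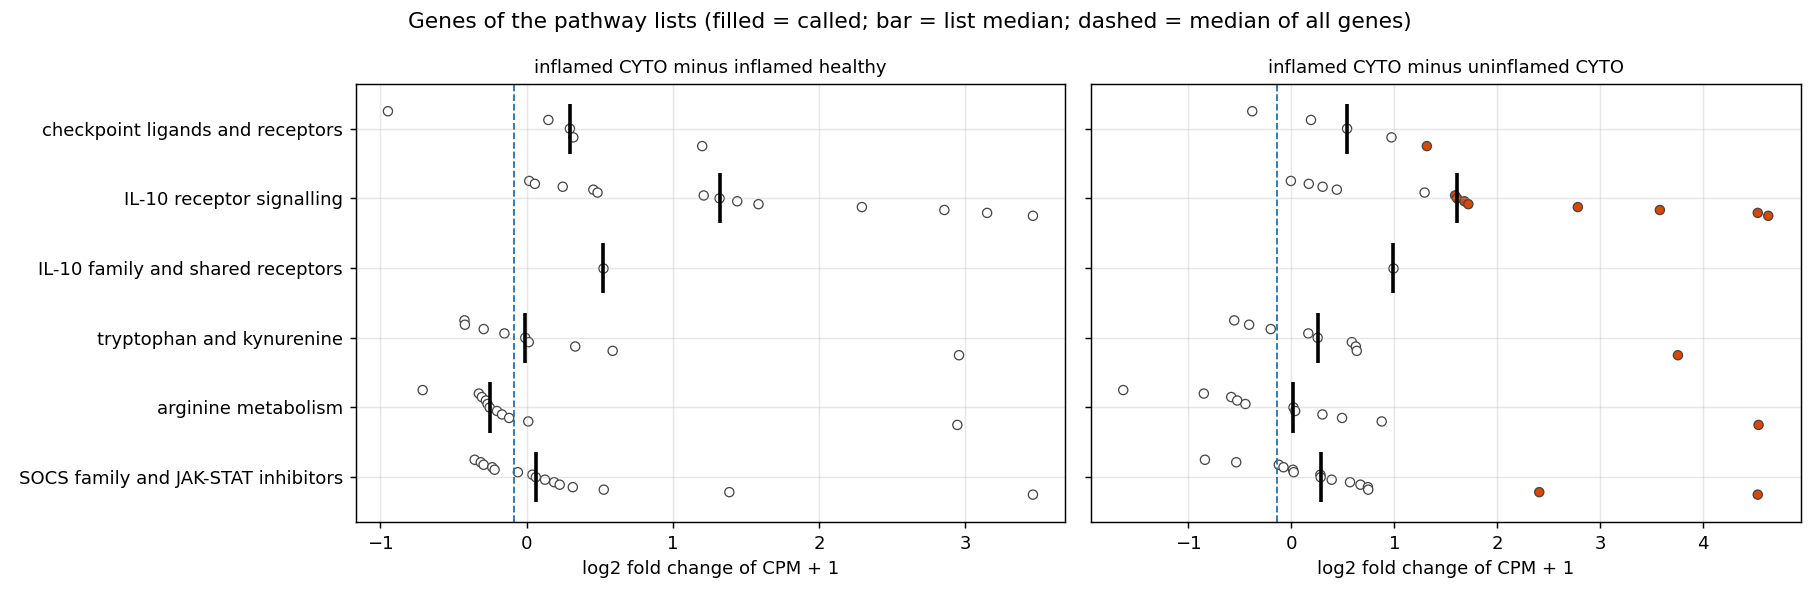
Log2 fold changes of CPM + 1 for each gene of the 6 pathway lists described, in inflamed CYTO against inflamed healthy cows (left) and against uninflamed CYTO cows (right). Filled points are called by limma, the bar is the median of the list and the dashed line the median of all genes (-0.08 and -0.14). IL-10 receptor signalling has the highest list median on both sides (1.32 and 1.61).

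Likeness to other genes was described by Pearson's r of log2(CPM + 1) over the 27 cows, which share group, depth and cell mixture. The 5 genes most like CD274 were IL1A (0.98), PLEK (0.98), NLRP3 (0.97), ADGRE1 (0.96) and CASS4 (0.96). IL1A encodes interleukin-1 alpha and NLRP3 the inflammasome sensor. Those most like IL10 were NLRP3 (0.97), MXD1 (0.97), NFKBIA (0.97), RUBCNL (0.96) and PLEK (0.96), so NLRP3 and PLEK were in both sets. IL10RA was most like STX6 (0.97), GNA15, TFE3, WDFY4 and NCF4 (all 0.96 after rounding), and NCF4 encodes a subunit of the phagocyte oxidase. ARG2 was most like IL1RAP (0.96), GPAT3, HSH2D, a gene without a symbol, and TLR4 (0.92). IDO1 had lower values: MOCOS (0.85), a gene without a symbol (0.82), PROCR (0.75), the interferon-induced chemokine gene CXCL9 (0.75) and OLR1 (0.72). With Spearman's rho in place of r, PLEK and IL1A remained among the 5 for CD274, only NLRP3 for IL10, none for IL10RA, MOCOS, OLR1 and PROCR for IDO1, and IL1RAP for ARG2.

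Among themselves, CD274 and IL10 were the most alike (r = 0.93), followed by CD274 and ARG2 (0.85) and IL10 and ARG2 (0.83), and without s1239 and s2683 these were 0.91, 0.78 and 0.70. Around the group means they were 0.86, 0.82 and 0.74. All values around the group means include s1239 and s2683 and were not computed without these cows. IL10 and IL10RA had an r of 0.69, and 0.53 around the group means. IDO1 had its highest value with CD274 (0.44) and its lowest with IL10RA (0.03), and around the group means its value with CD274 was 0.59.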

How the data were processed

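Endometrial cytobrush RNA from 30 cows at 7 DPP was sequenced by the authors as 100 bp reads from poly(A) stranded libraries, aligned with STAR to UMD3.1 (at most 2 mismatches, unique hits) and counted with featureCounts on Ensembl 86. The submitters' notes name R 3.3.2 and edgeR 3.18.0. The deposited tables hold CPM made by the authors without a scaling factor. Deposited test columns (log2 fold changes, fold ratios, scores, p-values) hold the authors' comparisons and were not used. All 314280 values were whole multiples of 1 read within 0.01 (100%), from which counts were recovered for edgeR and DESeq2. The low values that make this test strict were scarce in 13 libraries.

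The tables list 10476 genes, already filtered by the authors. Each comparison was fitted with limma 3.58.1 (trended, R 4.3.3) on log2(CPM + 1) of its own cows only, for genes at 1 CPM or more in 5 libraries (4 where the smaller group held 4 cows), with Benjamini-Hochberg adjustment over all of them. Fold changes are on that scale and understate changes of low genes. Alternatives were edgeR 4.0.16, DESeq2 1.42.0 (with and, added later, without its replacement of outlying counts), another pseudocount (0.1), no filter, RLE or TMM factors, a fit of all 27 cows, inclusion of 3 further cows, marker covariates and each cow left out. limma, edgeR and DESeq2 were tested on simulated data. The study's methods name DESeq2 on counts, and limma was used because the deposited unit is CPM. Genes named from the pathway lists are those called in any comparison or, where fewer than 2, the 2 with the smallest p in inflamed CYTO against inflamed healthy cows, and likeness names the 5 genes with the highest r. The 6 groups follow the study's animal classification by cow number, and matched the deposited subgroup tables for 27 of 27 cows. Those tables also hold the 3 further cows: s1378 with inflamed CYTO, s2188 with PVD alone and s2672 with PVD with CYTO. A pathway list is not reported here. The genes and lists were chosen with earlier results of these data known. Only protein-coding genes were counted, and which library was in which sequencing pool is not given in the sources used here. Each group holds separate cows, so p-values measure spread between animals.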

Additional observations from a re-analysis of the deposited data

Results flagged for a closer look

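In tests of 45 combinations of gene and group for a cow far from the rest (Dixon's ratio on log2(CPM + 1)), 5 were past the limit, and chance alone passes about 1 in 20. IL10 in s1239 of the PVD with CYTO group gave 0.971 (limit 0.829, n = 4), at 75.2 CPM against 2.46 in the next cow. IL10RA in s1239 among all PVD cows gave 0.730 (limit 0.526, n = 8). IL10RA in s1890 gave 0.729 among uninflamed healthy cows (limit 0.71, n = 5), high at 22.1 CPM, and in s1831 it gave 0.775 among inflamed healthy cows, low at 13.8 CPM. IDO1 in s2006 gave 0.680 among all healthy cows (limit 0.466, n = 10), at 225 CPM.

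The 3 cows outside the study set (1 labelled CYTO, 2 labelled PVD), left out by the study for their vaginal mucus score, exceeded the highest healthy cow in several genes. IL10 was at 15.7 CPM in s2188, 18.4 CPM in s2672 and 44.4 CPM in s1378, where the highest healthy cow had 4.03 CPM. ARG2 was at 319, 873 and 363 CPM in the same order (highest healthy cow 122 CPM), and IL10RA at 35.2, 35.4 and 57.2 CPM (31.9 CPM). CD274 passed the highest healthy cow (62.1 CPM) only in s1378, at 136 CPM. The neutrophil sums of these cows were 13565, 34687 and 11620 CPM, and the part of that in the values was not tested.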

How the results depend on the processing

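No paired analysis was possible because each cow is in 1 group only and replicate numbers, given in accession order, join no cows across groups. The number of genes called over all genes tested depended on the tool. By DESeq2 it was 700 in PVD against healthy, 23 in CYTO against healthy, 128 in inflamed CYTO against inflamed healthy, 10 in PVD with CYTO against inflamed healthy, 875 in inflamed against uninflamed healthy, 39 in uninflamed CYTO against uninflamed healthy and 94 for the interaction, where limma gave 0, 0, 43, 0, 0, 0 and 8. With no outlying count replaced, an alternative chosen after seeing the data, DESeq2 called 938 genes in PVD against healthy and 19 in CYTO against healthy. By edgeR the genes called were 14 in inflamed CYTO against inflamed healthy and 0 for the interaction. With 1 fit of all 27 cows the genes called were 608 in PVD against healthy, 0 in inflamed CYTO against inflamed healthy, 1377 in inflamed against uninflamed healthy, 31 in inflamed against uninflamed CYTO (911 by the separate fit) and 0 for the interaction. With the neutrophil covariate they were 0 in both inflamed CYTO comparisons, 3 in PVD with CYTO against inflamed CYTO and 40 for the interaction, which gave 3 with a pseudocount of 0.1 and 21 with RLE or TMM. Leaving out 1 cow at a time gave 0 to 4 genes called in PVD against healthy, 5 (without s2064) to 142 (without s1570) in inflamed CYTO against inflamed healthy, 0 to 2151 (without s1890) in inflamed against uninflamed healthy, 0 to 373 (without s1890) in uninflamed CYTO against uninflamed healthy, 554 (without s2039) to 1.2e+03 (without s2064) in inflamed against uninflamed CYTO and 2 to 581 (without s1890) for the interaction. With the neutrophil covariate the sign turned in PVD against healthy for CD274 (-0.11), IL10 (-0.089) and ARG2 (-0.36), in CYTO against healthy for IL10RA (-0.039) and ARG2 (-0.11), and in inflamed CYTO against inflamed healthy for ARG2 (-0.094). It also turned in PVD with CYTO against inflamed healthy for CD274 (-0.099), IL10 (-0.023), IDO1 (-0.095) and ARG2 (-0.28), in PVD alone against inflamed healthy for ARG2 (-0.28), and in inflamed against uninflamed healthy for CD274 (-0.66) and ARG2 (-0.74). The others were uninflamed CYTO against uninflamed healthy for CD274 (-0.15) and ARG2 (0.24), inflamed against uninflamed CYTO for IL10 (-1.67), IL10RA (-3.93) and IDO1 (6.60), and PVD with CYTO against PVD alone for CD274 (-0.30), IL10 (-0.31) and ARG2 (-0.22). With the epithelium covariate it turned for CD274 (-0.059) and ARG2 (-0.25) in inflamed against uninflamed healthy, for IDO1 (0.039) in inflamed against uninflamed CYTO and for IL10 (0.93) and ARG2 (0.48) in PVD with CYTO against inflamed CYTO. In that last comparison edgeR and DESeq2 gave 1.56 and 1.73 for CD274, 1.59 and 1.75 for IL10, 0.84 and 0.99 for IDO1 and 2.07 and 2.22 for ARG2. With 1 cow left out at a time, PVD with CYTO against PVD alone ran from -0.71 to 1.94 for CD274, -0.70 to 1.20 for IL10, -0.12 to 0.47 for IL10RA and -0.40 to 1.54 for ARG2, the lowest each without s1239. In the same way PVD with CYTO against inflamed CYTO ran from -1.54 to 0.41 for ARG2, inflamed against uninflamed CYTO from -0.87 to 0.55 for IDO1, inflamed against uninflamed healthy from -0.43 to 0.58 for ARG2 and -1.43 to 0.31 for IDO1, and the interaction from -0.55 to 1.41 for IDO1. IL10RA was also called without s1890 in uninflamed CYTO against uninflamed healthy (2.22, adjusted p = 0.0473) and in the interaction (-1.90, adjusted p = 0.0482). The cause of these differences was not tested. Another pseudocount, no filter and RLE or TMM factors changed no call of the 5 genes. Inclusion of the 3 further cows was run for PVD against healthy and CYTO against healthy only, and limma called none of the 5 genes with or without them. IL10 rested on few reads in uninflamed healthy cows, which limits its fold changes there.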

Other observations

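In the 3 cows outside the study set the genes did not stand in the ratio seen in inflamed CYTO cows. CD274 was at 15.4 CPM in s2188, 24.7 CPM in s2672 and 136 CPM in s1378, below the inflamed CYTO range (161 to 373 CPM). IL10 was inside that group's range (3.62 to 21.1 CPM) in s2188 and s2672 (15.7 and 18.4 CPM) and above it in s1378 (44.4 CPM). ARG2 was above the inflamed CYTO range (84.7 to 153 CPM) in all 3 cows, at 319, 873 and 363 CPM in that order. IDO1 was at 1.91, 2.47 and 11.4 CPM in s2188, s2672 and s1378.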
